A study of Mus musculus with 12 samples.

Results

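Livers in which an active form of YAP had been switched on in hepatocytes for 2 weeks were compared with uninduced livers of the same genotype. The comparison used 4 of the 12 RNA-seq libraries of the series, 2 per group, chosen by their titles: the libraries titled as 2-week overexpression and those titled as YAP controls. All 12 libraries entered the fit, so that the groups shared an estimate of the spread. The libraries outside the comparison were 3 titled as 4-week YAP overexpression, 3 titled as MYC overexpression and 2 titled as MYC controls. Of 48576 listed genes, 17964 passed the filter on low counts and were tested. The mice of both compared groups carried Col-TRE-YAPS127A, which places the mutant YAP under a tetracycline-responsive promoter. They also carried Rosa26-LSL-rtTA, which gives the doxycycline-dependent activator rtTA once Cre has removed a stop cassette. The design text states that mice of this genotype received an AAV with Cre under the hepatocyte promoter TBG at 8 to 10 weeks of age, without saying whether the controls were among them. The induced group then had doxycycline for 2 weeks, and the labels of the controls state that YAPS127A was not induced. The labels name hepatocytes as the cell type, but the RNA was extracted from whole liver. Nothing beyond the titles says that libraries of a group came from separate animals, so p-values measure the spread between these libraries. The 2-week livers differed in sex pattern, as given below, and so came from different animals, while the spread between controls may be technical.

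YAP and its paralog TAZ are transcriptional co-activators that have no DNA-binding domain and act mainly through the TEAD factors. In the Hippo pathway, the kinases MST1 and MST2 activate LATS1 and LATS2, which phosphorylate YAP and TAZ so that they are held in the cytoplasm or degraded. Serine 127 of YAP is 1 of the LATS sites, and its change to alanine (S127A) leaves a protein that escapes this retention. In liver, YAP is known for its control of organ size and for its higher activity in bile duct cells than in hepatocytes.

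Levels are given as CPM (read counts scaled to library size, with TMM factors) in control livers 1 and 2 and in 2-week livers 1 and 2, in that order. Genes that rose or fell passed an adjusted p of 0.05 (edgeR quasi-likelihood test, Benjamini-Hochberg over all tested genes), and log2 fold changes of 2 weeks minus control carry their SE (n = 2 per group). An adjusted p after a semicolon is the value without the named library, where leaving it out ended the call. Where leaving out 1 library moved a list's count of rises or falls by over 1.5 times, that count is given after the list's own. A group without counts was set to a floor of 3 counts per library, which gives a lower bound of the fold. The 4 libraries held 12710543 to 14459821 counts. Some features of the libraries moved with the groups. Of the 2-week livers, liver 2 had a female pattern (3.19 and 0.955 CPM in controls and 1.35 and 1748 CPM at 2 weeks for Xist, the RNA that silences an X chromosome), whereas both controls and 2-week liver 1 had a male one (129 and 124 CPM in controls and 95.6 and 0 CPM at 2 weeks for the Y-linked Ddx3y). Mitochondrially encoded genes took 19.3 and 19.6% of counts in controls and 13.9 and 10.2% at 2 weeks. TMM factors were 0.743 and 0.742 in controls and 0.977 and 1.175 at 2 weeks, and scaling to total counts instead raised the median log2 fold change over all tested genes from 0.10 to 0.64. Skeletal muscle markers, apart from Neb, summed to 6.473 and 3.182 CPM in controls and to 1062 and 1164 CPM at 2 weeks over 21 tested genes, where 19 of 22 with Neb rose. 12 rose without control 1, and 11 rose without control 2 or 2-week liver 2. The part of muscle RNA in other results was not tested. The defining markers of hepatocytes, among them albumin and apolipoproteins, summed to 98450 and 85620 CPM in controls and 94040 and 75100 CPM at 2 weeks, so the label was met in all 4 libraries. Since these are bulk samples, fewer cells of a type and less RNA per cell cannot be told apart.

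The 2-week livers differed from controls across the transcriptome: 4993 genes changed (27.8% of those tested), 2716 upward (15.1%) and 2277 downward (12.7%). By the fitted log2 fold change, 927 genes were higher and 378 lower by at least 8-fold. Genes without counts in a group were not set to the bound in these 2 counts, which therefore include changes not shown to reach 8-fold. Cd3g, without counts in controls, had a fitted log2 fold change of 6.16 but a bound of 1.995-fold. The libraries of the groups did not overlap, with both 2-week livers higher, in 36.6% of tested genes, and with both lower in 30.0%. With total-count scaling, 29.1% of genes were higher and 5.45% lower. The count of changed genes was 2716 without control 1, 2781 without control 2 and 2445 without 2-week liver 2, and 1600 genes (969 higher, 631 lower) kept their call when each library in turn was left out and with total-count scaling. The direction of the changes differed with abundance. Among the 3734 genes with a mean under 1 CPM over the 4 libraries, 7.95% rose and 2.17% fell. Between 10 and 100 CPM, 17.0% rose and 18.7% fell, and among the 98 genes at 1000 CPM and over, 4.08% rose and 34.7% fell. This order depended on the scaling in the classes from 10 to 1000 CPM. Between 10 and 100 CPM, 1194 genes rose and 1311 fell, against 2542 and 458 with total-count scaling. Between 100 and 1000 CPM, 170 rose and 491 fell, against 405 and 252. At 1000 CPM and over, 4 rose and 34 fell, against 13 and 27. In all, 274 of the risen genes had no count in either control, and 77 of the fallen genes had none in either 2-week liver.

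**Figure D1:**
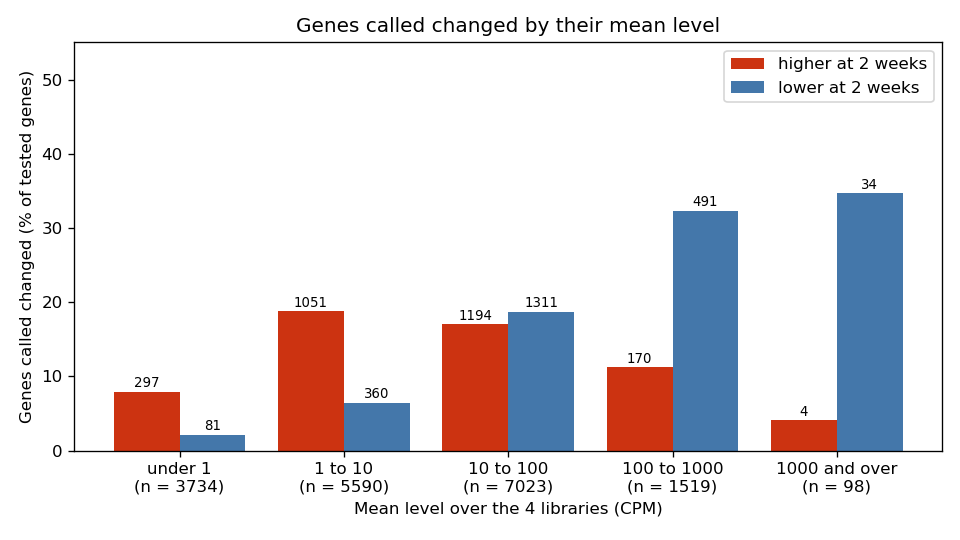
Share of tested genes called higher (red) or lower (blue) at 2 weeks, in classes of the mean level over the 4 libraries, with TMM scaling; numbers above bars count genes. The share called lower climbs from 2.17% under 1 CPM to 34.7% at 1000 CPM and over, while the share called higher is largest between 1 and 10 CPM (18.8%); with total-count scaling more genes rose than fell between 10 and 1000 CPM.

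Some DNA-binding partners of YAP rose, while the level counted under Yap1 did not pass. In the list of YAP, TAZ, TEAD and VGLL factors, 6 of 9 tested genes rose and 3 did not pass, where 15.1% of all tested genes rose and 12.7% fell, and the log2 fold change had a median of 2.64 (2.34 with genes lacking counts set to the bound) beside 0.10 over all tested genes. 3 rose without control 1. Yap1 was at 86.5 and 81.2 CPM in controls and 80.1 and 87.4 CPM at 2 weeks (log2 fold change 0.00 ± 0.17, adjusted p = 1). Those 4 values lie within a narrow range, and the labels do not give the species of the transgene, whose reads need not be counted under the mouse symbol. Wwtr1, which encodes TAZ, rose from 56.1 and 56.6 to 151 and 118 CPM (log2 fold change 1.25 ± 0.27, adjusted p = 0.0063). Tead1 rose from 25.4 and 30.3 to 252 and 250.4 CPM (log2 fold change 3.17 ± 0.33, adjusted p = 0.000137). Tead4 rose from 0.483 and 2.44 to 28.8 and 33.9 CPM (log2 fold change 4.44 ± 0.65, adjusted p = 0.000941). Both 2-week livers stood above both controls in these genes, and the 2-week values of Tead1 were almost equal. Tead3 (12.8 and 12.9 CPM in controls and 14.3 and 16.9 CPM at 2 weeks, adjusted p = 0.337) and Tead2 (0.483 and 1.17 CPM in controls and 2.69 and 7.53 CPM at 2 weeks, adjusted p = 0.103) did not pass. Among the VGLL cofactors, which bind TEADs in place of YAP, Vgll3 rose from 0.58 and 2.12 to 56.5 and 64.9 CPM (log2 fold change 5.50 ± 1.18, adjusted p = 0.00888; 0.0726 without control 1). The TEAD repressor Vgll4 rose from 24.7 and 29.7 to 47 and 50.7 CPM (log2 fold change 0.84 ± 0.21, adjusted p = 0.0138; 0.104 without control 1 and 0.0751 without 2-week liver 2). Vgll2, a cofactor of skeletal muscle, was at 0 and 0 CPM in controls and 2.05 and 1.02 CPM at 2 weeks and lost its call when any of the 4 libraries was left out (0.103 without control 1, 0.0989 without control 2, 0.104 without 2-week liver 1 and 0.0674 without 2-week liver 2). Muscle genes differed between the groups as given above, and Tead4 and Vgll2 are also transcribed in muscle.

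Upstream of YAP, adaptor and inhibitor genes of the pathway rose, whereas the MST kinases and most of their partners did not pass. Over the Hippo list, 12 of 26 tested genes rose, 2 fell and 12 did not pass, with a median of 0.69. Total-count scaling gave 18 rises and 0 falls. 0 fell without control 1, 2-week liver 1 or 2-week liver 2, and 1 fell without control 2. Wwc1, also known as KIBRA, a scaffold that promotes LATS activation, rose from 127 and 116 to 577 and 595 CPM (log2 fold change 2.27 ± 0.43, adjusted p = 0.00362). Its paralog Wwc2 rose from 36.5 and 39.8 to 91.8 and 102 CPM (log2 fold change 1.34 ± 0.22, adjusted p = 0.00157). Both groups are tight in these genes and stand well apart. Amot, an angiomotin that holds YAP at junctions, rose from 23.8 and 27.2 to 97.6 and 116 CPM (log2 fold change 2.07 ± 0.28, adjusted p = 0.000523). Its paralog Amotl2 rose from 45.1 and 37.7 to 331 and 414 CPM (log2 fold change 3.17 ± 0.67, adjusted p = 0.00754; 0.0513 without control 1 and 0.0623 without control 2), while Amotl1 was at 16 and 18.7 CPM in controls and 16.6 and 17.4 CPM at 2 weeks (adjusted p = 0.943). Of the angiomotins, then, 2 of 3 passed. Lats2 rose from 30.1 and 31.6 to 75.5 and 87.3 CPM (log2 fold change 1.40 ± 0.29, adjusted p = 0.00509). Lats1 fell from 112 and 119.8 to 80.5 and 81.8 CPM (log2 fold change -0.52 ± 0.15, adjusted p = 0.0227), a call lost without any of the 4 libraries (0.0733 without control 1, 0.122 without control 2, 0.101 without 2-week liver 1 and 0.101 without 2-week liver 2) and a direction that turned to a log2 fold change of 0.02 with total-count scaling. The LATS paralogs thus had opposite signs with TMM but not with total-count scaling. Among MST kinases and their partners, Stk3 (adjusted p = 0.167), Stk4 (0.083), Sav1 (0.253), Nf2 (0.875) and Mob1a (0.0892) did not pass. Mob1b fell from 126 and 100 to 64.8 and 63.2 CPM (log2 fold change -0.82 ± 0.21, adjusted p = 0.0158; 0.121 without control 1, 0.0649 without 2-week liver 1 and 0.089 without 2-week liver 2).

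Among other kinases and LATS inhibitors of the pathway, some rose and others did not pass. Map4k4, a kinase that can phosphorylate LATS in parallel to MST, rose from 16.3 and 19.4 to 71.5 and 107 CPM (log2 fold change 2.32 ± 0.24, adjusted p = 0.000137). The LIM proteins Ajuba and Wtip bind and inhibit LATS. Ajuba rose from 5.51 and 5.3 to 93.1 and 111 CPM (log2 fold change 4.23 ± 0.35, adjusted p = 5.79e-05). Wtip rose from 0.676 and 0.424 to 10.3 and 15.6 CPM (log2 fold change 4.53 ± 0.75, adjusted p = 0.00151). In contrast, the third member of this family, Limd1, was at 38.7 and 51.6 CPM in controls and 36.1 and 39.5 CPM at 2 weeks (adjusted p = 0.281). Ptpn14, a phosphatase that binds YAP through its WW domains, rose from 4.44 and 5.09 to 46.6 and 75.9 CPM (log2 fold change 3.68 ± 0.29, adjusted p = 5.28e-05), higher in 2-week liver 2 than in liver 1. Fat1, an atypical cadherin, rose from 119.9 and 144 to 252 and 269.9 CPM (log2 fold change 0.98 ± 0.22, adjusted p = 0.00722; 0.0698 without control 1), while Fat4 (adjusted p = 0.262), its ligand Dchs1 (0.099) and Frmd6 (0.308) did not pass. Rassf1 rose from 3 and 5.3 to 11.3 and 11.4 CPM (log2 fold change 1.45 ± 0.35, adjusted p = 0.0111; 0.0883 without control 1 and 0.0532 without 2-week liver 2). Taok2 rose from 57.5 and 54.4 to 90.8 and 80.2 CPM (log2 fold change 0.61 ± 0.21, adjusted p = 0.0468; 0.136 without control 1, 0.189 without control 2, 0.17 without 2-week liver 1 and 0.0972 without 2-week liver 2), and Taok1 and Taok3 did not pass (adjusted p = 0.974 and 0.0729).

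**Figure D2:**
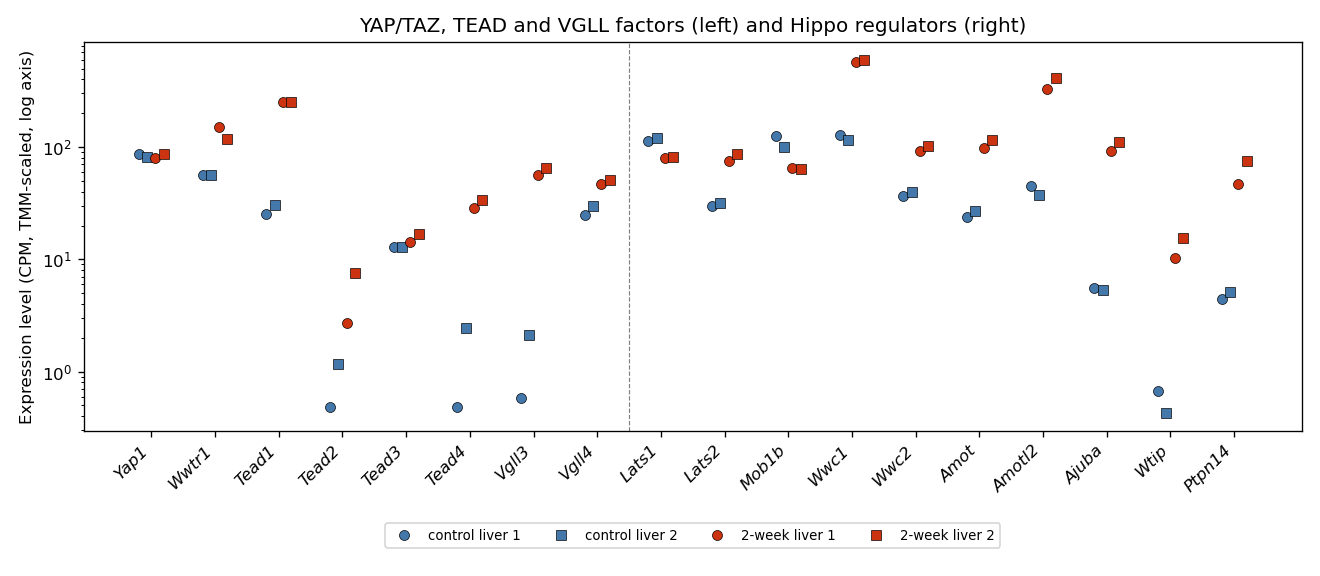
Expression level in each library (CPM, log axis) of YAP/TAZ, TEAD and VGLL factors (left of the dashed line) and Hippo regulators (right); blue, controls; red, 2-week livers; circle and square, libraries 1 and 2. Yap1 points overlap between groups, while Tead1 lies at 252 and 250.4 CPM against 25.4 and 30.3 CPM in controls.

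Among downstream targets, 12 of 21 tested genes rose, 1 fell and 8 did not pass, with a median of 1.84. Total-count scaling gave 15 rises and 0 falls. 7 rose and 0 fell without control 2, and 0 fell without 2-week liver 1 or 2-week liver 2. Axl, a receptor tyrosine kinase, rose from 21.9 and 20.2 to 92.7 and 106 CPM (log2 fold change 2.24 ± 0.21, adjusted p = 0.0001). Myof, myoferlin, a membrane repair protein, rose from 7.44 and 5.3 to 44.8 and 94.7 CPM (log2 fold change 3.45 ± 0.46, adjusted p = 0.000626). Neither gene overlapped between groups, as in 36.6% of all tested genes with both 2-week livers higher. In both genes 2-week liver 2 held the higher value. Cyr61, a matricellular ligand of integrins, rose from 35.8 and 50.1 to 126 and 183 CPM (log2 fold change 1.84 ± 0.36, adjusted p = 0.0043). Ankrd1 encodes a nuclear ankyrin protein first known from muscle and rose from 0.29 and 0.636 to 30.6 and 131 CPM (log2 fold change 7.44 ± 1.25, adjusted p = 0.00278). Muscle RNA differed between the groups as given above, and its part in this result was not tested. The member that fell was Dock5, a guanine nucleotide exchange factor, at 60.1 and 63.2 CPM in controls and 41 and 44 CPM at 2 weeks (log2 fold change -0.54 ± 0.16, adjusted p = 0.0308), a call lost without any of the 4 libraries (0.0949 without control 1, 0.134 without control 2, 0.151 without 2-week liver 1 and 0.101 without 2-week liver 2). Cyr61 and Dock5 were picked after their values were seen.

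Promoters of some genes of the target and Hippo lists are shown because TEAD factors bind a known core sequence. The 6 letters GGAATG were searched on both strands (reverse complement CATTCC) in the 250 bases before each start site of the RefSeq promoter table (GRCm38.p6). They occurred in 12.6% of 32851 promoters, in 15.8% of 1948 genes that rose, 12.2% of 1627 that fell and 13.4% of 11572 tested genes in the table. Of the 14 listed targets with a promoter in the table, 5 held the core (35.7%). Capitals mark matches in the 5 promoters below, of Cyr61, Ankrd1, Ajuba, Ptpn14 and Amotl2. These are not the same 5 genes as the listed targets with the core. Ajuba is on the Hippo list and not among the targets. The listed target Axl also held 1 match and is not shown, nor are the targets without a match. The promoters lie on chr3:145649986-145650235 (minus strand), chr19:36119845-36120094 (minus), chr14:54577662-54577911 (minus), chr1:189728018-189728267 (plus) and chr9:102717554-102717803 (plus), each read 5′ to 3′ on the gene's strand. The table lists Cyr61 as Ccn1, so Cyr61 is not among the 14 targets, which were matched by symbol.
Cyr61: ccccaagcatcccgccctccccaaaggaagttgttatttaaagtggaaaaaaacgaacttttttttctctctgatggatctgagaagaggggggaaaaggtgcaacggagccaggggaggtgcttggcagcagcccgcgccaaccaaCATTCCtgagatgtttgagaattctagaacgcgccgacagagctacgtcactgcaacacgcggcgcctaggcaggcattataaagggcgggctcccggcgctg
Ankrd1: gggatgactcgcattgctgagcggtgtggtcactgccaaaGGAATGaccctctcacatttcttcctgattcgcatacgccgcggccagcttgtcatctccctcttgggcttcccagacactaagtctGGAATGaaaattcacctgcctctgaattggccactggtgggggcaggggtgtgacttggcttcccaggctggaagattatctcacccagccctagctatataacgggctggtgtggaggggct
Ajuba: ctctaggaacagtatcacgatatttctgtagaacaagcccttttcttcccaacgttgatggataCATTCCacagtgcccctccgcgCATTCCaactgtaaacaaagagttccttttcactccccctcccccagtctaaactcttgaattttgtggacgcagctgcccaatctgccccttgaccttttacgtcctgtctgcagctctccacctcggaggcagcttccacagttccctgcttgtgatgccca
Ptpn14: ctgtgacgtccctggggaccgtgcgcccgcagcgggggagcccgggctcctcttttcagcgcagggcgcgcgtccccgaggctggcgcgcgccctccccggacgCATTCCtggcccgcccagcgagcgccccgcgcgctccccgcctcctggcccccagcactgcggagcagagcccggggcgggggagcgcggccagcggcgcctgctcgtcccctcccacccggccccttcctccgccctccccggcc
Amotl2: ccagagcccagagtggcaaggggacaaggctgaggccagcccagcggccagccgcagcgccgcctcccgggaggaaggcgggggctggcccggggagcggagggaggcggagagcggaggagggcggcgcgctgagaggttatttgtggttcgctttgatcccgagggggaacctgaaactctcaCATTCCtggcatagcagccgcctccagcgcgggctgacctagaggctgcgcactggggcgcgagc
Ankrd1 and Ajuba each held 2 matches and the others 1. Gpc3, with 1.35 and 1.17 CPM in controls and 1116 and 1073 CPM at 2 weeks, the largest rise from a level above 1 CPM among the genes named here, had none in this window. A match describes the letters only.

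Single ligands of growth factor pathways rose by large factors, while most members of their lists did not pass. Of the EGF family, 3 of 15 tested genes rose, 3 fell and 9 did not pass, with a median of 0.25. Total-count scaling gave 6 rises and 1 fall. 1 fell without control 1, control 2 or 2-week liver 2. Nrg1, neuregulin, the ligand of ERBB3 and ERBB4, rose from 1.64 and 0.636 to 89.4 and 87 CPM (log2 fold change 6.25 ± 0.57, adjusted p = 0.000104). Hbegf, a ligand of EGFR, rose from 2.51 and 1.06 to 9.28 and 8.85 CPM (log2 fold change 2.33 ± 0.43, adjusted p = 0.00271). In both ligands the 2-week livers stand far above the controls, whereas Lrig1, an inhibitor of these receptors, fell from 51.1 and 55.7 to 15.4 and 14.8 CPM (log2 fold change -1.82 ± 0.31, adjusted p = 0.00165). The receptor Erbb2 rose from 2.03 and 1.38 to 7.08 and 10.6 CPM (log2 fold change 2.37 ± 0.60, adjusted p = 0.0142; 0.0608 without control 1, 0.102 without control 2 and 0.0783 without 2-week liver 2).

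In the Notch pathway, 7 of 20 tested genes rose, 1 fell and 12 did not pass, with a median of 0.99 (0.87 with genes lacking counts set to the bound). Total-count scaling gave 12 rises and 0 falls. 0 fell without control 1; 4 rose and 0 fell without control 2 or 2-week liver 2; 4 rose without 2-week liver 1. Notch signals through cleavage of the receptor after contact with a ligand on a neighbouring cell and directs biliary fate in liver development. The ligand Jag1 rose from 7.44 and 10.2 to 74 and 198 CPM (log2 fold change 3.95 ± 0.65, adjusted p = 0.00213). The receptor Notch1 rose from 44.1 and 48.4 to 94.2 and 84.9 CPM (log2 fold change 0.95 ± 0.17, adjusted p = 0.00262). The target Hes1 rose from 7.44 and 7.32 to 31.3 and 34.7 CPM (log2 fold change 2.16 ± 0.24, adjusted p = 0.000187). All 3 separated the groups, with the widest spread in Jag1 between the 2-week livers. Lfng, a glycosyltransferase that tunes the receptor, rose from 2.8 and 2.97 to 9.21 and 10.6 CPM (log2 fold change 1.78 ± 0.36, adjusted p = 0.00461).

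The Wnt pathway genes that passed fell. Here 7 of 30 tested genes fell and 23 did not pass, with a median of -0.13. Total-count scaling gave 5 rises and 6 falls. 4 fell without control 1 or control 2, and 3 fell without 2-week liver 2. The R-spondin receptor Lgr4 fell from 128 and 115 to 36.7 and 30.1 CPM (log2 fold change -1.86 ± 0.20, adjusted p = 0.000179). Lgr5 fell from 19.5 and 11.5 to 0.354 and 0.598 CPM (log2 fold change -4.99 ± 0.92, adjusted p = 0.00283). Axin2, a feedback target, fell from 13.4 and 12.9 to 1.77 and 3.05 CPM (log2 fold change -2.44 ± 0.53, adjusted p = 0.00624; 0.0511 without 2-week liver 1). Both receptors and Axin2 lie below controls in each 2-week liver. In the TGF-beta and activin pathway, 8 of 28 tested genes rose, 3 fell and 17 did not pass, with a median of 0.75 (0.60 with genes lacking counts set to the bound). Total-count scaling gave 14 rises and 1 fall. 4 rose and 1 fell without control 1 or 2-week liver 2; 5 rose and 1 fell without control 2; 1 fell without 2-week liver 1. The ligand Tgfb1 rose from 11.3 and 14.8 to 53.8 and 59.4 CPM (log2 fold change 2.12 ± 0.24, adjusted p = 0.000211). Tgfb2 rose from 1.84 and 1.8 to 29.8 and 33.2 CPM (log2 fold change 4.11 ± 0.43, adjusted p = 0.000144). Skil, an inhibitor of SMAD transcription factors, rose from 28.7 and 36.7 to 65.3 and 78.4 CPM (log2 fold change 1.14 ± 0.17, adjusted p = 0.000908). Inhbe, an activin subunit made by hepatocytes, fell from 48.9 and 56.8 to 10.6 and 17.3 CPM (log2 fold change -1.91 ± 0.32, adjusted p = 0.00171). Tgfb2 moved further than Tgfb1 from a lower control level, although that difference was not tested.

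In the insulin-like growth factor system, 4 of 19 tested genes rose, 5 fell and 10 did not pass, with a median of 0.09. Total-count scaling gave 7 rises and 4 falls. 2 rose and 2 fell without control 1 or control 2; 2 fell without 2-week liver 1; 1 rose and 1 fell without 2-week liver 2. The growth hormone receptor Ghr fell from 848 and 822 to 109 and 76.6 CPM (log2 fold change -3.17 ± 0.36, adjusted p = 0.000221), a drop seen in both livers. Of the binding proteins, Igfbp7 rose from 69.4 and 79.7 to 217 and 279 CPM (log2 fold change 1.74 ± 0.27, adjusted p = 0.00114). Igfbp1 rose from 25.1 and 37.7 to 179 and 338 CPM (log2 fold change 3.04 ± 0.73, adjusted p = 0.0142; 0.0979 without control 1, 0.0631 without control 2 and 0.0785 without 2-week liver 2). Igfbp2 fell from 582 and 342 to 13.5 and 19.2 CPM (log2 fold change -4.82 ± 1.16, adjusted p = 0.0147; 0.0556 without control 1, 0.0961 without 2-week liver 1 and 0.0932 without 2-week liver 2). Igfbp1 and Igfbp2 moved in opposite directions, each with calls that depended on single libraries.

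Cell-cycle genes rose in the lists of every phase, and their levels differed between the 2-week livers in mitosis. Of G1 cyclins, CDKs, their inhibitors and E2F factors, 11 of 25 tested genes rose and 14 did not pass, with a median of 0.61. 4 rose without control 1 or 2-week liver 2, and 3 rose without control 2. Cdk6, a kinase of G1 entry, rose from 73.4 and 76.3 to 155 and 174 CPM (log2 fold change 1.14 ± 0.19, adjusted p = 0.00162). The inhibitor Cdkn1c rose from 0.773 and 0.53 to 3.9 and 8.73 CPM (log2 fold change 3.26 ± 0.67, adjusted p = 0.00593; 0.0536 without control 2). The repressor E2f7 rose from 0.29 and 1.17 to 6.87 and 8.79 CPM (log2 fold change 3.43 ± 0.81, adjusted p = 0.0102; 0.0834 without control 1). Activators and inhibitors of the cycle were thus both among the risen genes. In DNA replication, 18 of 31 tested genes rose, 1 fell and 12 did not pass, with a median of 1.68. 6 rose without control 1; 4 rose without control 2; 10 rose without 2-week liver 1; 7 rose without 2-week liver 2. Pole2, a subunit of DNA polymerase epsilon, rose from 0.29 and 0.106 to 2.9 and 2.75 CPM (log2 fold change 3.76 ± 0.70, adjusted p = 0.00296). Orc1, which marks replication origins, had no counts in controls and 2.91 and 2.03 CPM at 2 weeks, which is at least 8.12-fold higher.

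For mitosis and the spindle, 18 of 22 tested genes rose and 4 did not pass, with a median of 4.22 (3.97 with genes lacking counts set to the bound). 5 rose without control 1 or control 2, and 9 rose without 2-week liver 2. The members summed to 31.8 and 22.4 CPM in controls and 306 and 654 CPM at 2 weeks. The checkpoint kinase Bub1 rose from 0.387 and 0 to 3.47 and 8.01 CPM (log2 fold change 4.79 ± 0.97, adjusted p = 0.00496). Its relative Bub1b rose from 0.58 and 0.955 to 6.59 and 13.8 CPM (log2 fold change 3.73 ± 0.61, adjusted p = 0.0015). Ttk, of the same checkpoint, rose from 0.29 and 0 to 12.2 and 8.79 CPM (log2 fold change 6.04 ± 1.23, adjusted p = 0.00538). Bub1 and Bub1b were higher in 2-week liver 2, and Ttk in liver 1. For cytokinesis, 13 of 14 tested genes rose and 1 did not pass, with a median of 3.59. 5 rose without control 1; 4 rose without control 2; 6 rose without 2-week liver 2. Incenp, which places Aurora B at the midzone, rose from 2.13 and 2.55 to 15.4 and 23.4 CPM (log2 fold change 3.05 ± 0.44, adjusted p = 0.000774). The midbody kinase Cit rose from 3.87 and 2.76 to 37.7 and 63 CPM (log2 fold change 3.92 ± 0.40, adjusted p = 0.000137). Aurkb, Aurora B itself, rose from 0.0966 and 0 to 2.98 and 8.37 CPM (log2 fold change 6.59 ± 1.36, adjusted p = 0.00544; 0.0527 without control 2).

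The promoters of mitotic genes are known for CCAAT boxes bound by NF-Y, and 3 are shown for that reason. The letters CCAAT, on both strands (reverse complement ATTGG), occurred in 33.8% of 32851 promoters and 40.0% of tested genes in the table. They occurred in 39.3% of the genes that rose and in 43.3% of those that fell. In the mitosis list 14 of 18 genes with a promoter held them (77.8%), while none of the 18 held GGAATG. Capitals mark the matches, in chr9:70421555-70421804 (minus strand), chr10:69352913-69353162 (minus) and chr11:99024190-99024439 (minus). The promoters of Ccnb1, Cdc20 and Plk1 held fewer matches (2, 2 and 1) than those below and are not shown.
Ccnb2: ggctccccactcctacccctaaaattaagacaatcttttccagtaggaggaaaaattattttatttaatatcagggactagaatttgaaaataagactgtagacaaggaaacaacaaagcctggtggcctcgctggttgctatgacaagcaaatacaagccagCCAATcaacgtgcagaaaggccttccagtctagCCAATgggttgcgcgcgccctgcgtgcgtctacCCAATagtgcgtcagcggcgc
Cdk1: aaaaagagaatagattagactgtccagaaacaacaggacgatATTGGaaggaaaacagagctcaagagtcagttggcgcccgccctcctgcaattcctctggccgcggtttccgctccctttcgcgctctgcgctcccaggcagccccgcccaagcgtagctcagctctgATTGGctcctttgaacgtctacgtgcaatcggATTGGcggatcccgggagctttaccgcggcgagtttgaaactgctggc
Top2a: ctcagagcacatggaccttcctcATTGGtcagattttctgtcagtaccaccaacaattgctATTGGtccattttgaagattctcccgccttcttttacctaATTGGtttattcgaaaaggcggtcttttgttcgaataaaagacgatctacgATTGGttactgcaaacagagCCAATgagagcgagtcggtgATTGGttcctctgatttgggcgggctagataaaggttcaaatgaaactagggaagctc
Ccnb2, cyclin B2, was at 0 and 0.424 CPM in controls and 5.6 and 15 CPM at 2 weeks, Cdk1, its kinase, at 0.193 and 0.955 CPM in controls and 12.2 and 21.3 CPM at 2 weeks, and Top2a, the topoisomerase of mitotic chromosomes, at 3 and 1.7 CPM in controls and 25.2 and 66.2 CPM at 2 weeks. All 3 rose, and all 3 lost the call without single libraries: Ccnb2 with adjusted p = 0.123 without control 1, 0.066 without control 2 and 0.0921 without 2-week liver 2, Cdk1 with 0.054 without control 1, and Top2a with 0.0586 without control 2. These genes were chosen after their values were seen. Of 4 further motifs searched on both strands, TTTGAA was in 33.3% and TTCCCGCC in none of the mitotic genes, against 13.5 and 3.78% of tested genes. GTTAAT and TGACTCA were in 5.64 and 4.51% of tested genes, in 4.47 and 4.88% of genes that rose and in 7.19 and 4.12% of genes that fell.

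Genes of the p53 response and apoptosis also rose: 17 of 26 tested genes rose, 1 fell and 8 did not pass, with a median of 1.24. Cdkn1a, which encodes the cyclin-dependent kinase inhibitor p21, rose from 0.87 and 0.849 to 48.2 and 68 CPM (log2 fold change 6.07 ± 0.46, adjusted p = 5.28e-05). Plk2, a kinase of the stress response, rose from 10.4 and 13.5 to 54.9 and 75.4 CPM (log2 fold change 2.45 ± 0.32, adjusted p = 0.000438). The list held both death-promoting and protective genes, and both kinds rose. Bax, a pore-forming killer of mitochondria, rose from 14 and 10.8 to 32.4 and 26.8 CPM (log2 fold change 1.25 ± 0.19, adjusted p = 0.00107). Tnfrsf10b, the TRAIL receptor, rose from 0.29 and 0.212 to 6.94 and 10.1 CPM (log2 fold change 5.03 ± 0.75, adjusted p = 0.000825). Bcl2, a protector of mitochondria, rose from 4.25 and 2.65 to 30.0 and 38.8 CPM (log2 fold change 3.31 ± 0.33, adjusted p = 0.000116). Mcl1, a second such protector, rose from 157 and 158 to 393 and 343 CPM (log2 fold change 1.22 ± 0.26, adjusted p = 0.00614). Xiap, an inhibitor of caspases, was the member that fell, at 272 and 245 CPM in controls and 123 and 126 CPM at 2 weeks (log2 fold change -1.06 ± 0.17, adjusted p = 0.00124). Bax, Tnfrsf10b, Mcl1 and Xiap were chosen after their values were seen.

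The cytoskeleton and the cell surface changed in the same livers. In the actin and focal adhesion list, 20 of 31 tested genes rose, 1 fell and 10 did not pass, with a median of 1.27. Total-count scaling gave 25 rises and 0 falls. 12 rose without control 1, and 0 fell without control 2 or 2-week liver 1. S100a11, a calcium-binding partner of annexins, rose from 9.08 and 11.1 to 346 and 442 CPM (log2 fold change 5.28 ± 0.44, adjusted p = 5.79e-05). Annexins bind membranes in a calcium-dependent way: Anxa2 rose from 6.47 and 7.43 to 66.9 and 95.3 CPM (log2 fold change 3.54 ± 0.38, adjusted p = 0.000163). Anxa5 rose from 101.2 and 125 to 1254 and 1122 CPM (log2 fold change 3.39 ± 0.32, adjusted p = 0.0001). The controls were far below the 2-week livers in all 3 genes. Tagln2, an actin-bundling protein, rose from 12.3 and 10.4 to 101.2 and 159.5 CPM (log2 fold change 3.52 ± 0.39, adjusted p = 0.000215). Its smooth-muscle relative Tagln fell from 8.02 and 15.7 to 3.19 and 6.1 CPM (log2 fold change -1.34 ± 0.41, adjusted p = 0.03; 0.253 without control 2 and 0.181 without 2-week liver 1). Myh9, the non-muscle myosin heavy chain, rose from 592 and 740.5 to 2540 and 2289 CPM (log2 fold change 1.86 ± 0.24, adjusted p = 0.000453), a gene chosen after its values were seen.

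The keratin pair that hepatocytes use rose. Krt8 rose from 144 and 162 to 397 and 420.4 CPM (log2 fold change 1.42 ± 0.19, adjusted p = 0.00051). Its partner Krt18 rose from 209.7 and 239.6 to 661 and 592 CPM (log2 fold change 1.48 ± 0.20, adjusted p = 0.00045), whereas the bile duct keratin Krt19 was at 5.8 and 9.44 CPM in controls and 2.69 and 7.35 CPM at 2 weeks (adjusted p = 0.642). Of the keratins, 2 of 7 tested genes rose and 5 did not pass, with a median of 1.48 (1.42 with genes lacking counts set to the bound). Total-count scaling gave 4 rises and 0 falls. 4 rose without 2-week liver 1. Junction genes split: 4 of 23 tested genes rose, 6 fell and 13 did not pass, with a median of 0.10 (0.05 with genes lacking counts set to the bound). The tight junction scaffold Cgn rose from 47.2 and 43 to 144 and 168 CPM (log2 fold change 1.79 ± 0.24, adjusted p = 0.000543). Another, Tjp1, rose from 146 and 146 to 349 and 319.6 CPM (log2 fold change 1.2 ± 0.19, adjusted p = 0.00131). The main gap junction protein of hepatocytes, Gjb1, fell from 561 and 608 to 252 and 172 CPM (log2 fold change -1.46 ± 0.25, adjusted p = 0.00198). The claudin Cldn14 fell from 19.2 and 11.7 to 1.7 and 3.35 CPM (log2 fold change -2.60 ± 0.45, adjusted p = 0.002). These scaffold genes lay above and the channel and claudin genes below controls in both 2-week livers.

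Basement membrane genes changed chain by chain. Of the collagens, 9 of 21 tested genes rose, 2 fell and 10 did not pass, with a median of 1.05. Total-count scaling gave 11 rises and 0 falls. 4 rose and 0 fell without control 1 or 2-week liver 2; 5 rose and 0 fell without control 2; 1 fell without 2-week liver 1. The collagen IV chains Col4a3, Col4a4 and Col4a5, which form the network of specialised basement membranes, rose. Col4a3 went from 3.38 and 1.59 to 26.9 and 28.3 CPM (log2 fold change 3.46 ± 0.41, adjusted p = 0.000264). Col4a4 went from 2.9 and 2.23 to 13.7 and 22.1 CPM (log2 fold change 2.80 ± 0.54, adjusted p = 0.00331). Col4a5 went from 3.48 and 2.23 to 22.9 and 51 CPM (log2 fold change 3.69 ± 0.56, adjusted p = 0.0012). Each stood apart from the controls, and the 2-week livers differed most in Col4a5. The common chain Col4a1 rose from 82.6 and 99.7 to 166 and 208 CPM (log2 fold change 1.03 ± 0.31, adjusted p = 0.0279; 0.154 without control 1, 0.0808 without control 2 and 0.145 without 2-week liver 2). Its partner Col4a2 rose from 65 and 101.2 to 159 and 185 CPM (log2 fold change 1.05 ± 0.29, adjusted p = 0.0202; 0.154 without control 1 and 0.102 without 2-week liver 2). Col12a1, a fibril-associated collagen, rose from 3 and 6.15 to 41.4 and 62.1 CPM (log2 fold change 3.50 ± 0.35, adjusted p = 0.000111).

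Among integrins and laminins, 8 of 23 tested genes rose, 1 fell and 14 did not pass, with a median of 0.85. Total-count scaling gave 14 rises and 1 fall. 5 rose without control 1, and 2 fell without 2-week liver 2. Of the laminin chains, Lama5 rose from 3.77 and 6.9 to 94 and 149.7 CPM (log2 fold change 4.52 ± 0.54, adjusted p = 0.000383). Lamb2 rose from 7.05 and 11 to 126 and 134 CPM (log2 fold change 3.85 ± 0.34, adjusted p = 6.99e-05). Lama3 fell from 16 and 21.9 to 1.84 and 0.478 CPM (log2 fold change -4.04 ± 0.64, adjusted p = 0.00122). Lama3 lay below controls in both 2-week livers. Itga6, the alpha subunit of laminin-binding integrins, rose from 5.22 and 4.77 to 15.7 and 35.2 CPM (log2 fold change 2.35 ± 0.37, adjusted p = 0.00114). Nid1, which links laminin to collagen IV and is on none of the lists, rose from 20.5 and 25.2 to 644 and 610.3 CPM (log2 fold change 4.78 ± 0.40, adjusted p = 5.79e-05). It and the common collagen IV chains were chosen after their values were seen.

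**Figure D3:**
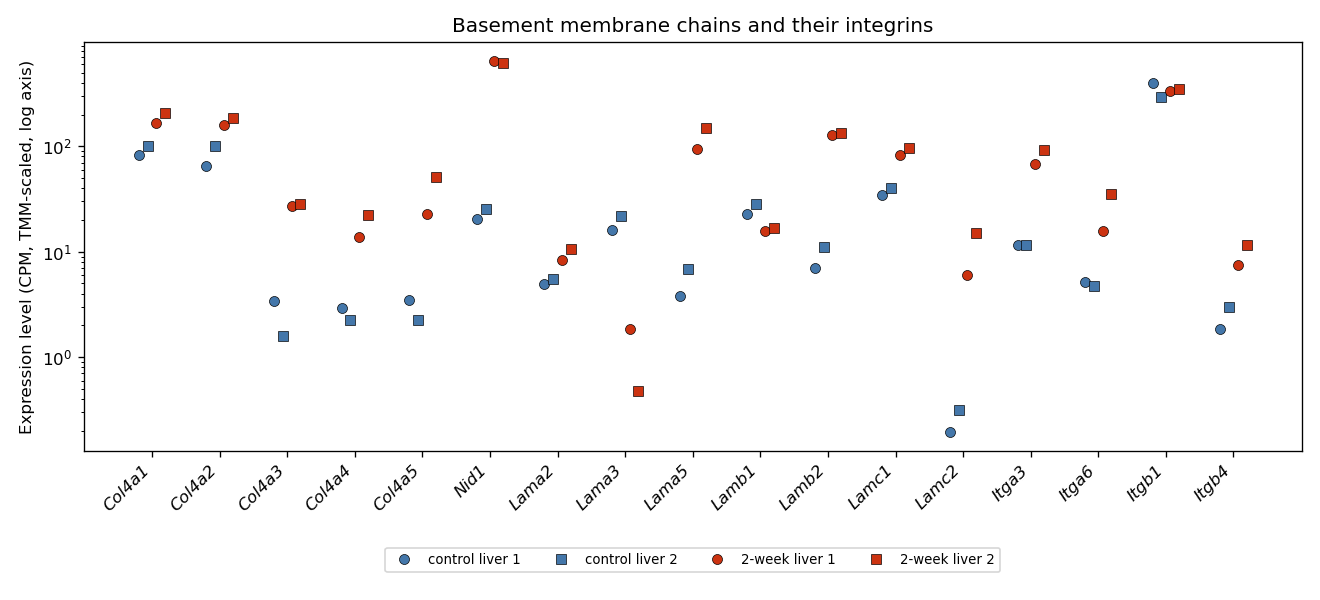
Expression level in each library (CPM, log axis) of collagen IV chains, nidogen, laminin chains and integrins; blue, controls; red, 2-week livers; circle and square, libraries 1 and 2. Nid1 reaches 644 and 610 CPM at 2 weeks, and Lama3 drops to 1.84 and 0.478 CPM.

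Among matrix proteases and their inhibitors, 11 of 26 tested genes rose, 2 fell and 13 did not pass, with a median of 1.62 (1.40 with genes lacking counts set to the bound). Total-count scaling gave 15 rises and 1 fall. 7 rose and 1 fell without control 1 or 2-week liver 2, and 7 rose without control 2. The inhibitor Timp2 rose from 14.9 and 19.2 to 222 and 222 CPM (log2 fold change 3.71 ± 0.38, adjusted p = 0.00014). Mmp14, the membrane protease that it partners in activating pro-MMP2, rose from 18.7 and 14.5 to 60.6 and 74.1 CPM (log2 fold change 2.02 ± 0.25, adjusted p = 0.000332). Both members of this pair rose. Lox, an enzyme that cross-links collagen, rose from 0.193 and 0.424 to 6.3 and 10.6 CPM (log2 fold change 4.76 ± 0.64, adjusted p = 0.000523). Mmp19 fell from 59.2 and 68.8 to 26.1 and 21.1 CPM (log2 fold change -1.44 ± 0.21, adjusted p = 0.000695).

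Some identity genes of the adult hepatocyte fell, and some biliary, progenitor and fetal genes rose. Of hepatocyte transcription factors, 9 of 28 tested genes fell and 19 did not pass, with a median of -0.74. Total-count scaling gave 1 rise and 6 falls. 5 fell without 2-week liver 2. Cebpa, a regulator of metabolic genes, fell from 347 and 359.8 to 152 and 114 CPM (log2 fold change -1.41 ± 0.24, adjusted p = 0.00162). Nr1h3, the oxysterol receptor LXR alpha, fell from 103 and 100 to 47.6 and 45.7 CPM (log2 fold change -1.12 ± 0.20, adjusted p = 0.00229). Xbp1, a factor of the secretory pathway, fell from 322 and 308 to 148 and 151 CPM (log2 fold change -1.08 ± 0.21, adjusted p = 0.00382). Tbx3, a T-box repressor of pericentral hepatocytes, fell from 66.9 and 62.5 to 5.31 and 6.28 CPM (log2 fold change -3.48 ± 0.57, adjusted p = 0.00194), the largest fall of these 4. Of the biliary and progenitor markers, 7 of 21 tested genes rose and 14 did not pass, with a median of 1.44. 4 rose without control 1, and 3 rose without control 2 or 2-week liver 2. Sox4, a factor of bile duct development, rose from 1.84 and 1.59 to 25.3 and 94 CPM (log2 fold change 5.11 ± 0.84, adjusted p = 0.00242). Prom1, a surface marker of progenitors, rose from 2.8 and 1.8 to 6.73 and 22.6 CPM (log2 fold change 2.67 ± 0.62, adjusted p = 0.00955; 0.0803 without control 2 and 0.0914 without 2-week liver 2). Krt19 did not pass, as given above.

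Of the fetal and imprinted genes, 8 of 22 tested genes rose, 2 fell and 12 did not pass, with a median of 1.83 (1.53 with genes lacking counts set to the bound). Total-count scaling gave 13 rises and 2 falls. 4 rose without control 1 or control 2, and 3 rose without 2-week liver 2. The noncoding RNAs Meg3 and Rian, expressed from the maternal copy of the Dlk1 region, were the members that fell. Meg3 went from 13.8 and 7.21 to 1.204 and 1.67 CPM (log2 fold change -2.86 ± 0.50, adjusted p = 0.00244). Rian went from 15.8 and 6.58 to 0.142 and 0.598 CPM (log2 fold change -4.83 ± 0.68, adjusted p = 0.000845). Peg3, a paternally expressed zinc finger gene, rose from 5.6 and 5.62 to 67 and 308 CPM (log2 fold change 5.06 ± 0.70, adjusted p = 0.000821), with a wide gap between the 2-week livers.

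Genes of both liver zones fell. The summed level was lower at 2 weeks in the pericentral list, while the periportal sums overlapped between the groups. Of pericentral genes, 12 of 22 tested genes fell and 10 did not pass, with a median of -3.58. Total-count scaling gave 1 rise and 11 falls. 6 fell without 2-week liver 2. The members summed to 13580 and 12030 CPM in controls and 1775 and 903 CPM at 2 weeks. Rhbg, an ammonium transporter beside the central vein, was at 3.29 and 4.46 CPM in controls and had no counts at 2 weeks, which is at least 19.8-fold lower. Rgn, regucalcin, fell from 769 and 686 to 193 and 176 CPM (log2 fold change -1.98 ± 0.31, adjusted p = 0.00112). Of periportal genes, 8 of 22 tested genes fell and 14 did not pass, with a median of -0.94. Total-count scaling gave 1 rise and 6 falls. 4 fell without control 1; 5 fell without control 2; 3 fell without 2-week liver 2. These summed to 71210 and 61950 CPM in controls and 77790 and 58080 CPM at 2 weeks, ranges that overlap and in which Alb holds a large share. Gls2, the liver glutaminase, fell from 265 and 269 to 110.5 and 69.6 CPM (log2 fold change -1.57 ± 0.30, adjusted p = 0.00331). Cyp2f2 fell from 1774 and 1757 to 153 and 20.3 CPM (log2 fold change -4.35 ± 0.84, adjusted p = 0.00478). Apoa4, an apolipoprotein, fell from 60.2 and 65 to 2.83 and 3.17 CPM (log2 fold change -4.38 ± 0.62, adjusted p = 0.000917).

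Enzyme families of detoxification fell in part, and sulfotransferases had more falls than rises beside a higher summed level. Of sulfotransferases, 2 of 16 tested genes rose, 6 fell and 8 did not pass. Both counts were smaller whichever library was left out, with values not given here. The family summed to 1511 and 1129 CPM in controls and 2554 and 1852 CPM at 2 weeks. Their median log2 fold change was -2.65 (-0.15 with genes lacking counts set to the bound). Of cytochromes P450, 4 of 76 tested genes rose, 14 fell and 58 did not pass, with a median of -1.31, and the family summed to 26380 and 22170 CPM in controls and 6684 and 2931 CPM at 2 weeks. 2 rose without control 1 or control 2. Cyp2c70, the enzyme that makes muricholic acids, fell from 731 and 909 to 281 and 172 CPM (log2 fold change -1.86 ± 0.28, adjusted p = 0.000845). Cyp4v3, a fatty acid hydroxylase, fell from 826 and 690.1 to 114 and 59.2 CPM (log2 fold change -3.13 ± 0.45, adjusted p = 0.000772). Neither overlapped between groups, as in 30.0% of all tested genes with both 2-week livers lower. Of UDP-glucuronosyltransferases, 10 of 19 tested genes fell and 9 did not pass, with a median of -2.88 (-1.95 with genes lacking counts set to the bound). Total-count scaling gave 0 rises and 6 falls. 5 fell without control 1 or 2-week liver 1; 4 fell without control 2; 3 fell without 2-week liver 2. Ugt2b5 fell from 565 and 432 to 59.4 and 40.7 CPM (log2 fold change -3.32 ± 0.53, adjusted p = 0.00156). Of carboxylesterases, 8 of 15 tested genes fell and 7 did not pass, with a median of -4.36 (-3.51 with genes lacking counts set to the bound). 4 fell without control 1 or 2-week liver 2, and 5 fell without control 2. Ces3b, a hydrolase of lipid esters, fell from 497 and 393 to 14 and 4.07 CPM (log2 fold change -5.63 ± 0.94, adjusted p = 0.00268). In each of these families near-identical copies can share reads, so values of single members are uncertain.

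The sex-biased programme moved as well, in a comparison in which 2-week liver 2 differs in sex pattern from the other 3 libraries. Of male-biased genes, 16 of 18 tested genes fell and 2 did not pass, with a median of -5.90, and of major urinary proteins, pheromone carriers made in male liver, 19 of 21 tested genes fell and 2 did not pass, with a median of -9.40 (-9.14 with genes lacking counts set to the bound). The urinary proteins summed to 11500 and 9369 CPM in controls and 329 and 32.6 CPM at 2 weeks. Within the male pattern, 2-week liver 1 was also far below the controls, and 2-week liver 2 lower still. Nudt7, a peroxisomal CoA hydrolase, fell from 673 and 748 to 15.8 and 8.67 CPM (log2 fold change -5.86 ± 0.36, adjusted p = 3.34e-05). Mup21 fell from 376 and 224 to 3.61 and 0.717 CPM (log2 fold change -7.14 ± 0.66, adjusted p = 0.000137). Without 2-week liver 2, which leaves only livers of the male pattern, 12 male-biased genes and 18 urinary proteins fell. Of female-biased genes, 8 of 18 tested genes rose, 2 fell and 8 did not pass, with a median of 2.87 (1.65 with genes lacking counts set to the bound). 5 rose and 1 fell without control 1; 5 rose without control 2; 1 fell without 2-week liver 2. Fmo2, a flavin monooxygenase, rose from 6.47 and 7.96 to 277 and 148 CPM (log2 fold change 4.88 ± 0.53, adjusted p = 0.000232). Cyp17a1, a steroid hydroxylase, fell from 27.8 and 45.7 to 0.992 and 0.359 CPM (log2 fold change -5.78 ± 0.99, adjusted p = 0.00244).

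Many genes of secreted proteins fell, while albumin did not pass. Of acute phase and plasma proteins, 17 of 25 tested genes fell and 8 did not pass, with a median of -1.65. Total-count scaling gave 2 rises and 12 falls. 7 fell without control 2; 8 fell without 2-week liver 1; 5 fell without 2-week liver 2. Crp, C-reactive protein, fell from 387 and 443 to 136 and 128 CPM (log2 fold change -1.65 ± 0.31, adjusted p = 0.00312). Fga, a fibrinogen chain, fell from 8621 and 8470 to 3127 and 3247 CPM (log2 fold change -1.42 ± 0.31, adjusted p = 0.00697). Alb was at 45610 and 35130 CPM in controls and 60520 and 48880 CPM at 2 weeks and did not pass (adjusted p = 0.568). 

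Lipid genes fell in part in synthesis, oxidation and export. Of apolipoproteins and lipoprotein handling genes, 2 of 30 tested genes rose, 9 fell and 19 did not pass, with a median of -0.66. 1 rose without control 1, control 2 or 2-week liver 1, and 1 rose and 4 fell without 2-week liver 2. Mttp, which loads lipid onto apolipoprotein B, fell from 487 and 449 to 117 and 113 CPM (log2 fold change -2.03 ± 0.20, adjusted p = 0.000124). Lpl, lipoprotein lipase, which adult hepatocytes hardly express, rose from 29.2 and 23.3 to 112 and 138 CPM (log2 fold change 2.25 ± 0.29, adjusted p = 0.000403). Of cholesterol and fatty acid synthesis, 18 of 26 tested genes fell and 8 did not pass, with a median of -1.80. 11 fell without control 2 or 2-week liver 2. Scap, the escort of the SREBP factors, fell from 119.9 and 138 to 38.2 and 34.1 CPM (log2 fold change -1.83 ± 0.18, adjusted p = 0.000101). Idi1, an isomerase of the sterol pathway, fell from 96.6 and 146 to 15.5 and 14.7 CPM (log2 fold change -3.01 ± 0.35, adjusted p = 0.000263). Me1, a source of NADPH, fell from 57.6 and 107 to 5.38 and 9.86 CPM (log2 fold change -3.43 ± 0.39, adjusted p = 0.000229). Of fatty acid oxidation and ketogenesis, 5 of 28 tested genes rose, 15 fell and 8 did not pass, with a median of -0.86. Total-count scaling gave 5 rises and 8 falls. 2 rose and 5 fell without control 1 or 2-week liver 2; 3 rose without control 2; 8 fell without 2-week liver 1. Cpt2, of the carnitine shuttle, fell from 142 and 134 to 40.5 and 45 CPM (log2 fold change -1.69 ± 0.24, adjusted p = 0.00065). Acadvl, which starts the oxidation of long chains, fell from 145 and 122 to 47.4 and 50.9 CPM (log2 fold change -1.44 ± 0.23, adjusted p = 0.00142). Acot2, a mitochondrial thioesterase that releases fatty acids from CoA, went the other way, at 1.74 and 3.5 CPM in controls and 34.2 and 57.7 CPM at 2 weeks (log2 fold change 4.14 ± 0.40, adjusted p = 0.000101).

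Some isozymes of sugar metabolism moved in opposite directions. Of glycolysis, gluconeogenesis and glycogen genes, 5 of 32 tested genes rose, 7 fell and 20 did not pass, with a median of -0.02. Total-count scaling gave 10 rises and 5 falls. 3 rose and 3 fell without control 2 or 2-week liver 2, and 4 fell without 2-week liver 1. The liver pyruvate kinase Pklr fell from 124 and 179.8 to 37.8 and 18.2 CPM (log2 fold change -2.44 ± 0.30, adjusted p = 0.000283). The form of growing tissues, Pkm, rose from 18.7 and 21.3 to 55.8 and 72.5 CPM (log2 fold change 1.68 ± 0.26, adjusted p = 0.00112), a gene chosen after its values were seen. Hk2, the hexokinase of muscle and tumours, rose from 1.64 and 3.08 to 19.98 and 17.5 CPM (log2 fold change 2.99 ± 0.42, adjusted p = 0.000604). Pygl, liver glycogen phosphorylase, fell from 708 and 798 to 244 and 158 CPM (log2 fold change -1.91 ± 0.24, adjusted p = 0.000328). Pkm and Hk2 are also muscle transcripts, and the part of the muscle RNA given above in their rise was not tested. Of pentose phosphate, serine and one-carbon genes, 4 of 24 tested genes rose, 2 fell and 18 did not pass, with a median of 0.06. Total-count scaling gave 6 rises and 1 fall. 2 rose and 1 fell without control 1; 0 fell without control 2; 5 fell without 2-week liver 1; 2 rose without 2-week liver 2. Psat1, of serine synthesis, rose from 0.387 and 0.743 to 9.56 and 21.1 CPM (log2 fold change 4.76 ± 0.81, adjusted p = 0.00252). Mthfd1l, a mitochondrial one-carbon enzyme, rose from 0.966 and 0.212 to 7.3 and 9.45 CPM (log2 fold change 3.78 ± 0.49, adjusted p = 0.000395).

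Among iron and heme genes, 1 of 26 tested genes rose, 9 fell and 16 did not pass, with a median of -0.28. Total-count scaling gave 8 rises and 4 falls. 5 fell without control 1 or control 2, and 3 fell without 2-week liver 2. Bmp6, the ligand that induces hepcidin, rose from 3.19 and 0.849 to 17.1 and 25.6 CPM (log2 fold change 3.38 ± 0.58, adjusted p = 0.00207). The heme synthesis enzyme Cpox fell from 223 and 204 to 75.5 and 91 CPM (log2 fold change -1.36 ± 0.20, adjusted p = 0.000908). Uros, of the same pathway, fell from 18.9 and 14.3 to 2.83 and 4.24 CPM (log2 fold change -2.23 ± 0.44, adjusted p = 0.00417). Ligand and enzymes moved in opposite directions in both 2-week livers. Of clock genes, 5 of 19 tested genes rose, 1 fell and 13 did not pass, with a median of 0.30. Total-count scaling gave 9 rises and 0 falls. 1 rose and 0 fell without control 1; 3 rose without control 2; 3 rose and 0 fell without 2-week liver 2. Per1 rose from 22 and 30.3 to 206 and 124 CPM (log2 fold change 2.65 ± 0.33, adjusted p = 0.000298), and times of day of the samples are not given in the labels.

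Transporters changed in both directions. Of 286 tested solute carriers, 43 rose and 63 fell (67 and 39 with total-count scaling), with a median of -0.15 (-0.11 with genes lacking counts set to the bound). Over all tested genes 15.1% rose and 12.7% fell, so solute carriers rose about as often as genes in general. 24 rose and 36 fell without control 1; 23 rose and 39 fell without control 2; 27 rose and 23 fell without 2-week liver 2. Slc25a24, a mitochondrial ATP-magnesium carrier, rose from 1.84 and 2.76 to 108 and 116 CPM (log2 fold change 5.61 ± 0.37, adjusted p = 3.34e-05). Slc16a10, a carrier of aromatic amino acids, fell from 162 and 136 to 25 and 16.6 CPM (log2 fold change -2.84 ± 0.34, adjusted p = 0.000265). Of ABC transporters, 11 of 44 tested genes rose, 15 fell and 18 did not pass, with a median of -0.15. Total-count scaling gave 16 rises and 8 falls. 8 fell without 2-week liver 2. Abcb1a, a multidrug exporter, rose from 5.99 and 4.14 to 120.1 and 103 CPM (log2 fold change 4.46 ± 0.40, adjusted p = 8.9e-05). Abcc5, a nucleotide exporter, rose from 6.18 and 6.79 to 41 and 54.4 CPM (log2 fold change 2.88 ± 0.34, adjusted p = 0.000263). Abcg1, a sterol exporter, rose from 11.9 and 11.8 to 48.7 and 49.1 CPM (log2 fold change 2.05 ± 0.27, adjusted p = 0.000497). These 3 exporters rose in livers in which the ABC list held more falls than rises.

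Most ribosomal protein genes of the cytosol did not pass, and their calls turned on the scaling. Of cytosolic ribosomal proteins, 4 of 83 tested genes rose, 2 fell and 77 did not pass, with a median of 0.17. Total-count scaling gave 58 rises and 0 falls. 0 rose and 0 fell without control 1 or control 2; 0 fell without 2-week liver 1; 0 rose and 1 fell without 2-week liver 2. Of mitochondrial ribosomal proteins, 1 of 75 tested genes rose, 31 fell and 43 did not pass, with a median of -0.66. Total-count scaling gave 1 rise and 8 falls. 0 rose and 18 fell without control 1; 0 rose and 17 fell without control 2; 0 rose and 15 fell without 2-week liver 2. Mrps5 fell from 62 and 72.7 to 28.5 and 27.1 CPM (log2 fold change -1.28 ± 0.20, adjusted p = 0.00105). Of the 13 tested genes of the mitochondrial genome, 4 fell and 9 did not pass, with a median of -1.06. Total-count scaling gave 0 rises and 2 falls. 1 fell without control 1, and 0 fell without control 2 or 2-week liver 2.

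**Figure D4:**
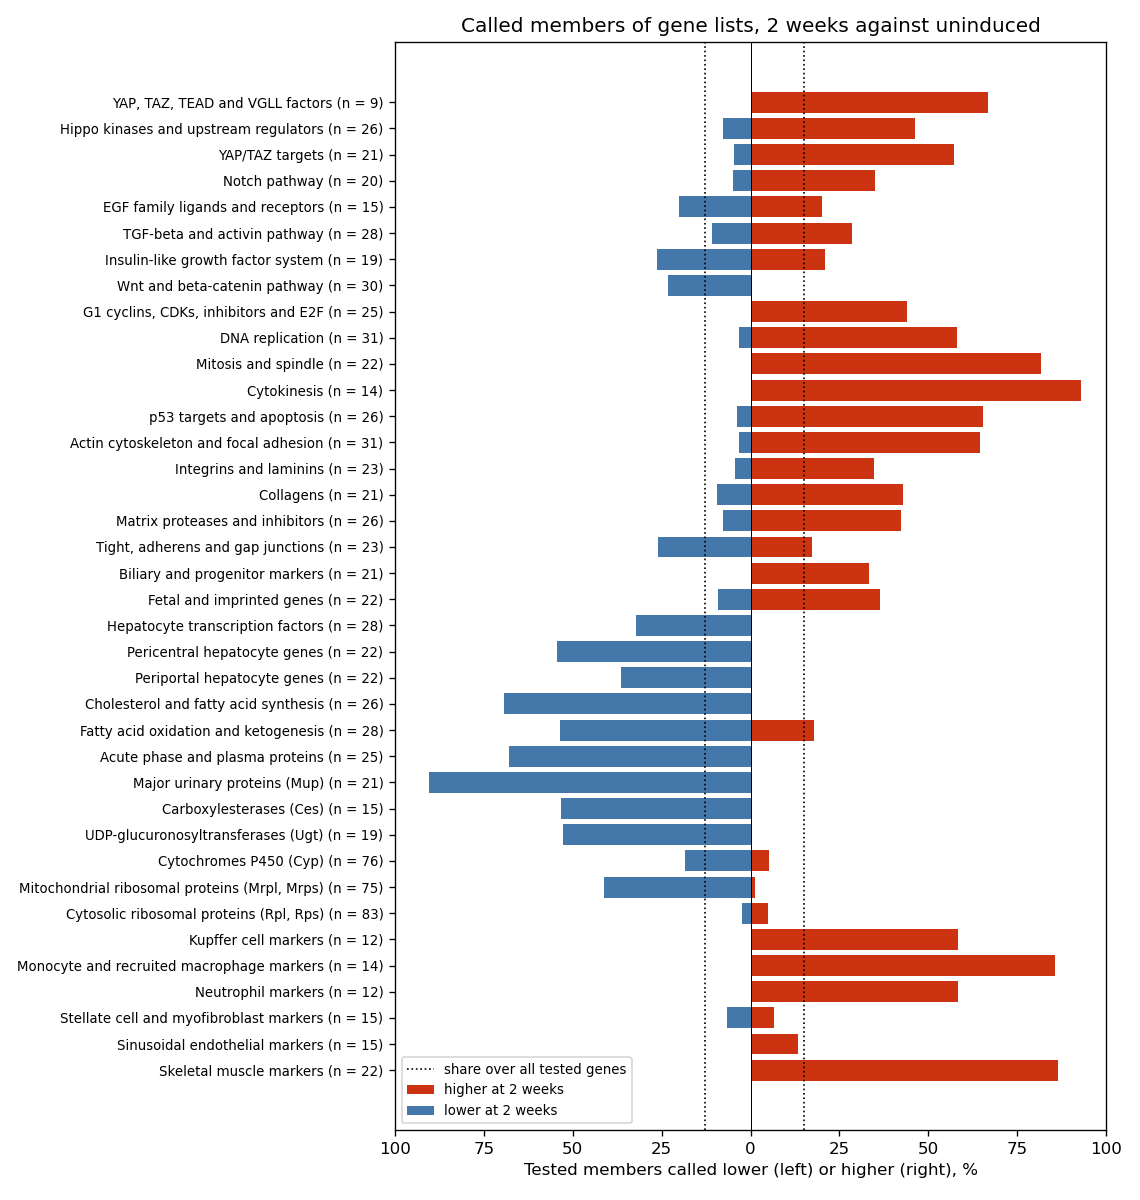
Percent of tested members of each plotted list called higher (right, red) or lower (left, blue) at 2 weeks, with the shares over all tested genes as dotted lines (15.1% higher, 12.7% lower). Of the plotted lists, those of cytokinesis, muscle, recruited macrophages and mitosis reach furthest right, and those of major urinary proteins, cholesterol and fatty acid synthesis and plasma proteins furthest left.

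Transcripts of macrophages were higher at 2 weeks, while those of lymphocytes, stellate cells and endothelium mostly did not pass. Of Kupffer cell markers, 7 of 12 tested genes rose and 5 did not pass, with a median of 2.56, and they summed to 396 and 399.9 CPM in controls and 2589 and 1930 CPM at 2 weeks. Total-count scaling gave 11 rises and 0 falls. The complement subunit C1qa rose from 34.1 and 43.9 to 217 and 188 CPM (log2 fold change 2.37 ± 0.38, adjusted p = 0.00144). C1qb rose from 40.9 and 38.6 to 239 and 224 CPM (log2 fold change 2.54 ± 0.38, adjusted p = 0.000917). Of monocyte and recruited macrophage markers, 12 of 14 tested genes rose and 2 did not pass, with a median of 3.04. Cx3cr1, the fractalkine receptor, rose from 0.87 and 1.17 to 14.4 and 39 CPM (log2 fold change 4.71 ± 0.60, adjusted p = 0.000408). Cd68, a lysosomal protein, rose from 12.4 and 12.1 to 75.2 and 69.3 CPM (log2 fold change 2.56 ± 0.32, adjusted p = 0.000317). Of neutrophil markers, 7 of 12 tested genes rose and 5 did not pass, with a median of 5.14 (4.03 with genes lacking counts set to the bound). 2 rose without control 1 or control 2; 11 rose without 2-week liver 1; 1 rose without 2-week liver 2. They summed to 8.02 and 5.09 CPM in controls and 26.4 and 234 CPM at 2 weeks, so most of their level came from 2-week liver 2. Of T and NK cell markers, 2 of 11 tested genes rose and 9 did not pass. Total-count scaling gave 4 rises and 0 falls. 1 rose without control 1 or control 2. Of B and plasma cell markers, 1 of 9 tested genes rose and 8 did not pass. 0 rose without control 2, 2-week liver 1 or 2-week liver 2. Of stellate cell markers, 1 of 15 tested genes rose, 1 fell and 13 did not pass (2 rose and 0 fell with total-count scaling). 0 rose without control 1 or 2-week liver 2, and 0 fell without control 2 or 2-week liver 1. Of sinusoidal endothelial markers, 2 of 15 tested genes rose and 13 did not pass. Total-count scaling gave 7 rises and 0 falls. 0 rose without control 1, and 1 rose without control 2, 2-week liver 1 or 2-week liver 2. 

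Signals that act on these cells also changed. Of chemokines and cytokines, 8 of 26 tested genes rose, 3 fell and 15 did not pass, with a median of 1.42 (1.17 with genes lacking counts set to the bound). Total-count scaling gave 11 rises and 0 falls. 4 rose and 1 fell without control 1 or 2-week liver 2, and 4 rose and 0 fell without control 2 or 2-week liver 1. Csf1, the growth factor of macrophages, rose from 14.1 and 17.3 to 153 and 304 CPM (log2 fold change 3.87 ± 0.42, adjusted p = 0.000198). Lif, a cytokine of the interleukin-6 family, had no counts in controls and 5.03 and 4.07 CPM at 2 weeks, which is at least 15-fold higher. Of interferon-stimulated genes, 8 of 23 tested genes rose, 1 fell and 14 did not pass, with a median of 1.16. Total-count scaling gave 12 rises and 0 falls. 3 rose and 0 fell without control 1 or control 2; 0 fell without 2-week liver 1; 4 rose and 0 fell without 2-week liver 2. Ifit2, an antiviral protein, rose from 3.48 and 5.83 to 58.4 and 55.7 CPM (log2 fold change 3.62 ± 0.40, adjusted p = 0.000195). Of antigen presentation genes, 7 of 16 tested genes rose and 9 did not pass, with a median of 1.51. Their summed level was nevertheless lower at 2 weeks, at 4236 and 4555 CPM in controls and 3679 and 2845 CPM at 2 weeks. 2 rose without control 1, and 3 rose without control 2 or 2-week liver 2. H2-DMa, which loads peptides onto class II molecules, rose from 0.58 and 0.955 to 9.78 and 15.2 CPM (log2 fold change 4.02 ± 0.52, adjusted p = 0.000399).

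By the naming rule, which leaves out the muscle list, the largest rises included Fgfbp1, a carrier that releases fibroblast growth factors from the matrix, at 0.966 and 0 CPM in controls and 236 and 331 CPM at 2 weeks (log2 fold change 9.12 ± 1.43, adjusted p = 0.00207). Stc2, stanniocalcin 2, a secreted glycoprotein, rose from 0.387 and 0.212 to 44.3 and 59.1 CPM (log2 fold change 7.38 ± 1.40, adjusted p = 0.00492). Osbpl3, an oxysterol-binding protein, rose from 1.16 and 0.212 to 90.6 and 90.4 CPM (log2 fold change 6.99 ± 0.58, adjusted p = 6.99e-05). Both 2-week livers stood above both controls in all 3, as the naming rule required. Fxyd3, a regulator of the sodium pump, was at 0.29 and 0.424 CPM in controls and 18 and 41.7 CPM at 2 weeks, Lrtm2 at 0.29 and 0.636 CPM in controls and 168 and 86.6 CPM at 2 weeks and Tceal5 at 0 and 0.318 CPM in controls and 32.1 and 32.3 CPM at 2 weeks. Zfp185, a LIM-domain protein, had no counts in controls and 20.5 and 20.9 CPM at 2 weeks, which is at least 68.1-fold higher. Of the 12 largest falls, 9 were major urinary protein genes. In 8 of these 9, 2-week liver 2 had no counts.

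The 2-week livers differed from each other in 2554 tested genes by more than 2-fold (with 0.2 CPM added), with 1600 higher in liver 2 and 954 higher in liver 1, while the controls differed so in 2929. Among the genes that rose, 321 differed so between the 2-week livers, and among those that fell 217. Sex-linked genes led the list by ratio, with Xist on one side and Ddx3y, Eif2s3y, Kdm5d and Uty on the other. Cyp2a5, a pericentral cytochrome, was at 658 and 545 CPM in controls and 95.1 and 2.27 CPM at 2 weeks and did not pass (adjusted p = 0.298). Cyp2b9, a female-biased cytochrome, was at 0.0966 and 0 CPM in controls and 1.98 and 40.8 CPM at 2 weeks and also did not pass (adjusted p = 0.0946). The histone genes Hist1h2ag and Hist1h3h were at 2.32 and 1.38 CPM in controls and 1.7 and 23.9 CPM at 2 weeks and at 0.58 and 1.38 CPM in controls and 2.05 and 23.7 CPM at 2 weeks. Myh8, a myosin of developing muscle, was at 0 and 0 CPM in controls and 0.354 and 34.9 CPM at 2 weeks.

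**Figure D5:**
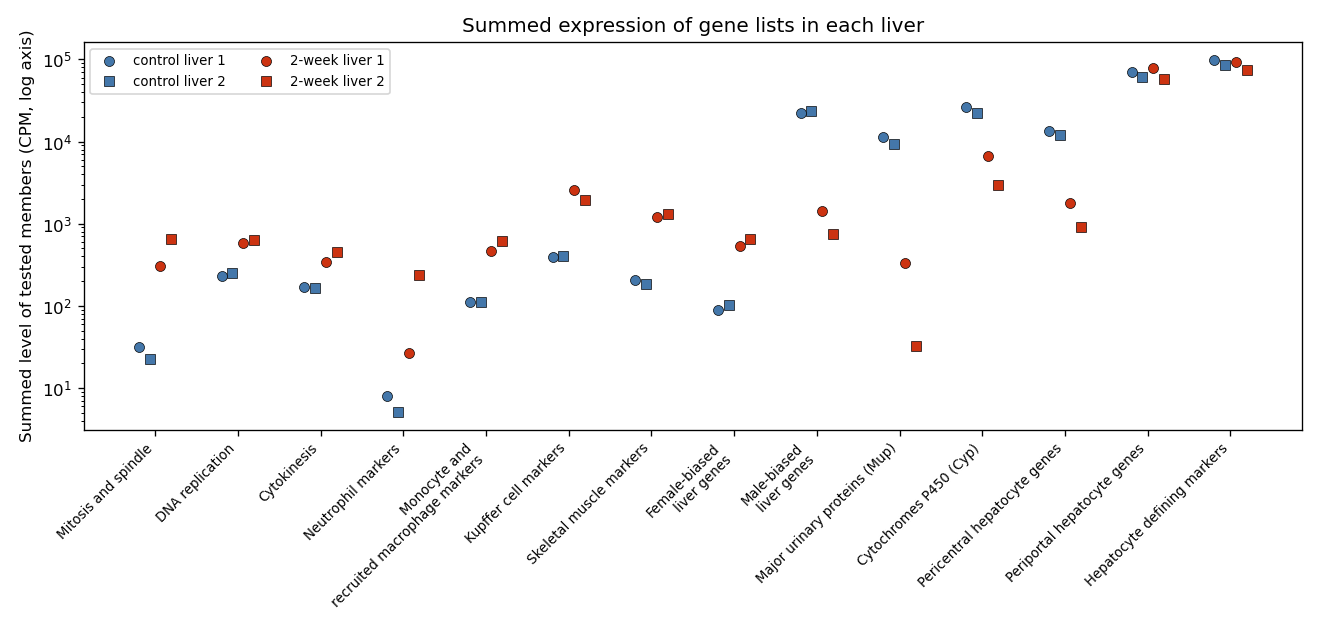
Summed level of the tested members of each plotted list in each library (CPM, log axis); blue, controls; red, 2-week livers; circle and square, libraries 1 and 2. Of the plotted lists, those of neutrophils and major urinary proteins differ most between the 2-week livers, while Kupffer cell and muscle sums lie close together.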

How the data were processed

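Total RNA of mouse liver was sequenced in 12 libraries, of which 2 YAP controls and 2 livers after 2 weeks of induction were compared, grouped by their titles. The authors deposited raw counts of reads for each gene symbol. Per the submitters' processing notes, the tools were featureCounts 1.6.3, HISAT2 2.1.0, DESeq2 1.20.0 and Trim Galore 0.4.1, in no stated order, on GRCm38 (mm10). Which annotation was counted, whether strand was used and how multi-mapping reads were handled are not given in the sources used here, so overlapping, antisense and near-identical genes can share reads.

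Of 48576 symbols, 46271 matched GENCODE vM21. There were 27 symbols turned into dates, which held up to 0.159% of a library and were not restored. Sept7, Sept9 and Ahsp were not analysed here. The 12 libraries held 12511170 to 17690798 counts. In the 4 libraries compared, 3 counts, used as the floor for folds against a group at 0, are worth 0.179 to 0.318 CPM and cover counting error only. Replicates differed by more than counting error (chi-square per degree of freedom 12.9 between controls and 29.7 between 2-week livers).

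Genes were kept by filterByExpr and tested in edgeR 4.0.16 (R 4.3.3) with TMM scaling and a robust quasi-likelihood fit of 1 mean per group over 12 libraries, two-sided, which leaves 7 residual degrees of freedom. The fit was also run on simulated counts in which few genes changed, about equally up and down. Such a simulation cannot test the scaling, whose factors moved with the groups here. Alternatives were total-count scaling, DESeq2 1.42.0 as a test and as size factors, no filter, fits of the 4 or of the 7 YAP model libraries, the replicate number as a block and leaving out each library. The 52 gene lists, 12 gene families and their members were chosen with earlier results of these data known. Lists are described by counts and medians, with no test of their own.

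Genes were named by a rule. It took the 12 largest rises and falls among genes that kept their call in each fit without 1 library and with total-count scaling, had at least 20 CPM in the higher group, did not overlap and were neither gene models nor on the muscle list. It added up to 4 members of each list with the smallest p, every factor of the YAP and Hippo lists, 6 genes each way by the ratio between the 2-week livers, and Alb, Afp, Glul, Gpc3, Myc and Xist. Examples were picked from these with their stability in view, and genes outside the rule are said to be so. Some genes that the rule names are not reported here. Promoters came from RefSeq tables on GRCm38.p6, in which 11572 tested genes were found. Each of the 6 motifs was searched in all promoters.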

Additional observations from a re-analysis of the deposited data

How the results depend on the processing

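The count of 4993 changed genes lay between 2445 and 3671 when 1 of the 4 libraries was left out, with 1412 to 2119 rises and 1033 to 1552 falls. Between 47.5 and 68.0% of the calls were kept, none in the opposite direction, and the lone library of a group was then assumed to vary like the other groups. With total-count scaling 5228 genes were higher and 979 lower, and 74.0% of the calls were kept. The DESeq2 Wald test kept 99.0%. Fits of the 4 libraries or of the 7 YAP model libraries, without the filter, or with DESeq2 size factors moved the counts by less than 1.5 times. The groups share replicate numbers, but only as numbers: deviations of same-numbered libraries from their group means correlated at -0.01 over 2 pairs. With the replicate number as a block, 3827 genes changed, 2041 upward and 1786 downward. Among the named genes, 4 log2 fold changes reversed: Xist to -0.63 without 2-week liver 2 (9.83 without control 1), and Dock5 to 0.0, Lats1 to 0.02 and Taok1 to 0.52 with total-count scaling. The cause was not tested. With 2 libraries per group, small changes and genes near the floor of 3 counts are not resolved. Sex patterns differ between the 2-week livers, so their differences have no replicate.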

Other observations

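Several peroxisomal genes, chosen after their values were seen and on none of the lists above, were lower at 2 weeks. Phyh, which starts the alpha-oxidation of branched fatty acids, fell from 1457 and 1343 to 229 and 105 CPM (log2 fold change -3.07 ± 0.49, adjusted p = 0.00131), and Scp2, a peroxisomal thiolase and sterol carrier, from 3398 and 3416 to 579 and 364 CPM (log2 fold change -2.85 ± 0.33, adjusted p = 0.000215). Hao1, glycolate oxidase, fell from 278 and 233 to 3.83 and 4.36 CPM (log2 fold change -5.96 ± 0.72, adjusted p = 0.000478). Both 2-week livers lay below both controls in these 3 genes, as they did in 30.0% of all tested genes. Crot, which exports shortened acyl chains, fell from 402 and 262 to 69.6 and 86 CPM (log2 fold change -2.09 ± 0.34, adjusted p = 0.0015), and Amacr, a racemase of bile acid precursors, from 110.3 and 110.0 to 15.7 and 17.3 CPM (log2 fold change -2.74 ± 0.38, adjusted p = 0.000695).

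Gcgr, the glucagon receptor, also chosen after its values were seen, fell from 109 and 108 to 15.9 and 9.38 CPM (log2 fold change -3.10 ± 0.51, adjusted p = 0.00204). The libraries of the groups did not overlap in this gene, as in 30.0% of all tested genes with both 2-week livers lower.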
